A study of Mus musculus with 10 samples.

Results

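Synaptotagmins are membrane proteins of secretory vesicles, and 10 of their genes (Syt1, Syt2, Syt4, Syt5, Syt6, Syt7, Syt9, Syt10, Syt11 and Syt13) were followed here across amacrine cells of the mouse retina. The genes were chosen by name from the 27933 rows of the deposited count table, and all 10 had counts. Amacrine cells are interneurons of the inner retina that release GABA, glycine, acetylcholine, glutamate or peptides. The 32523 cells came from 10 libraries of retinas at postnatal day 19, from mice whose genotype the labels give as Chx10-cre-GFP in every library, with no treatment and no second genotype. As background, the Chx10 promoter is active in bipolar cells, so the sort against GFP selects against them, although 228 of the cells still carried bipolar markers. The cells were sorted as negative for GFP, for CD133 and for CD73 and positive for the live-cell dye Calcein Blue, so no comparison here contrasts 2 groups of animals. Library 1 is batch 1 in the labels, libraries 2 to 6 are batch 2 and libraries 7 to 10 are batch 3. The labels do not say whether libraries are separate animals, so a p-value here covers variation among libraries only, and that may be technical.

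A synaptotagmin usually has 1 membrane span and a pair of C2 domains, and in the calcium-binding members acidic residues of those domains hold calcium ions. Binding of calcium then couples the vesicle to the SNARE fusion machinery. Syt1 and Syt2 are among the fast calcium sensors of transmitter release, Syt7 is a slower sensor of high affinity linked to asynchronous release, and Syt6 and Syt10 belong to a class that forms disulfide-linked dimers. Syt4, Syt11 and Syt13 lack full calcium binding. The names Syt5 and Syt9 have been exchanged in parts of the literature, and the symbols here are those of the gene annotation.

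The members differ at the codon that corresponds to codon 230 of Syt1, which encodes a calcium-binding aspartate of the first C2 domain. The stretches below, each 45 coding bases from GENCODE M21 transcripts of build GRCm38, are shown because this codon sets apart members that bind calcium there from members that do not. Capitals mark the codon aligned with codon 230 of Syt1.
Syt1: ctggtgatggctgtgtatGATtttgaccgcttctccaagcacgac
Syt2: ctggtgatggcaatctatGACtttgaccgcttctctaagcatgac
Syt5: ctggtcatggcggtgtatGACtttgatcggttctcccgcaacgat
Syt6: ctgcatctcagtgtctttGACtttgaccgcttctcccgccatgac
Syt7: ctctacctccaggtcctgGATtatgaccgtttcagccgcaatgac
Syt9: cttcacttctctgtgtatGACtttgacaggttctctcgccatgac
Syt10: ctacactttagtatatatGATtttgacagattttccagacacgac
Syt11: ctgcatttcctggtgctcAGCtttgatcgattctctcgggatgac
Syt13: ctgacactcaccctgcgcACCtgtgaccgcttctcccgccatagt
Syt1, Syt2, Syt5, Syt6, Syt7, Syt9 and Syt10 carried an aspartate codon, Syt11 a serine codon and Syt13 a threonine codon. Over aligned codons, the translations of Syt1 and Syt2 were 78.9% identical, those of Syt6 and Syt10 66.8%, those of Syt9 and Syt10 60.7%, those of Syt1 and Syt5 59.5% and those of Syt4 and Syt11 57.1%. The lowest identity was 28.2%, between Syt7 and Syt13. The values below are therefore given for Syt1, Syt2 and Syt5, then for Syt6, Syt9 and Syt10, then for Syt7, and then for Syt4, Syt11 and Syt13.

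Cells were grouped by 8 gates on the UMI counts (unique molecular identifiers, each counting 1 captured RNA molecule) of transmitter, connexin and peptide genes. The Gad gate took cells with at least 2 UMIs of Gad1 plus Gad2 and 0 of Slc6a9 (16415 cells, 50.5% of all), and the Slc6a9 gate took cells with at least 2 UMIs of Slc6a9 and 0 of Gad1 and Gad2 (4556 cells, 14.01%). Gad1 and Gad2 make GABA, and Slc6a9 is the glycine transporter that marks glycinergic amacrine cells. The Gjd2 gate (at least 3 UMIs of the connexin-36 gene) held 1940 cells. The cholinergic gate (at least 2 UMIs of Chat plus Slc18a3, which make and load acetylcholine) held 651 cells, and the Slc17a8 gate (at least 2 UMIs of the vesicular glutamate transporter VGLUT3) held 666. The peptide gates held 930 cells for Vip (at least 5 UMIs), 1548 for Npy (at least 10 UMIs) and 1148 for Cartpt (at least 1% of a cell's UMIs). Gates other than the first pair overlap: 277 cells lay in both the cholinergic and the Npy gate, 156 in both the Vip and the Cartpt gate, and 48.1% of the Gjd2 gate lay in the Slc6a9 gate.

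Libraries held 950 to 4738 cells and 6302659 to 26028492 UMIs, with median depths of 3296.5 to 5717 UMIs per cell. Libraries 5 and 6 shared 312 cell barcodes and libraries 2 and 3 shared 59, against 3 to 32 in the other pairs of libraries. Over shared barcodes, the median correlation between the 2 cells was 0.455 in libraries 5 and 6, against 0.416 for cells with other barcodes. It was 0.389 against 0.361 in libraries 2 and 3, and 0.412 against 0.422 in libraries 4 and 10, which shared 23. The median ratios of the lower to the higher UMI total in these 3 pairs of libraries were 0.147, 0.038 and 0.480. The cause was not tested. Calls of members that changed without cells of shared barcodes, or without library 5 or 6, are given with both values. Of 8 amacrine markers, 6 to 8 were at 20 CPM or above in every gate. The markers include Gad1, Gad2 and Slc6a9, whose levels in the Gad and Slc6a9 gates were set by the gates themselves. Slc6a9 was at 0 in the Gad gate, and Gad1 and Gad2 were at 0 in the Slc6a9 gate. Cells with at least 2 UMIs of each of 3 or more markers of another retinal class made up 3.44% of all cells and 14.4% of the Slc17a8 gate. Over all cells, 879 of these 1119 cells carried markers of the Müller glia list, and the lists were not counted apart within the Slc17a8 gate. Of that list, Dkk3 was at 511 ± 23.9 CPM over all cells and at 264 ± 88.2 in the Slc17a8 gate. The summed bipolar-cell markers had means of 77.7 CPM in the Vip gate to 246 in the Cartpt gate, with 236 in the Slc17a8 gate. The part of these markers in the results was not tested.

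Syt1 was the most abundant member in all 8 gates. Levels are CPM, the UMIs of a gene per 1000000 UMIs of a gate in 1 library. A UMI counts 1 transcript end, so CPM is not divided by gene length, although capture may differ between genes. Over all cells Syt1 was at 1784 ± 83.0 CPM (SD, n = 10 libraries, as for all means below unless stated). Syt4 followed at 317 ± 27.0, Syt11 at 310 ± 7.88, Syt7 at 173 ± 33.8, Syt13 at 87.9 ± 6.05 and Syt5 at 76.4 ± 11.4. The lowest were Syt6 at 46.2 ± 5.67, Syt9 at 29.6 ± 5.07, Syt10 at 11.1 ± 1.29 and Syt2 at 1.996 ± 0.677 CPM. Levels over all cells differed between batches for some members. Syt7 ran from 182 to 225 CPM in batch 2 and from 131 to 143 in batch 3, with 171 in library 1. Its means in batches 2 and 3 were 221 and 179 CPM in the Gad gate and 34.3 and 20.3 in the Slc6a9 gate. The mix of cells also differed. Slc6a9-gated cells were 337 to 435 of 3315 to 4738 cells per library in batch 2. They were 342 to 736 of 1616 to 3229 in batch 3. The part of this mix was not tested.

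The sum of the members and their mix differed between gates. Summed over the 10 genes, the level was 2433 ± 358 CPM in the Slc17a8 gate, 2434 ± 156 in the Slc6a9 gate and 2966 ± 228 in the cholinergic gate, with the Gjd2, Gad and Npy gates between them. It was 3529 ± 202 CPM in the Cartpt gate and 4753 ± 208 in the Vip gate, where every library of the Vip gate was above every library of the other gates. The Cartpt range overlapped only that of the cholinergic gate, whose highest library was at 3224 CPM. As a share of the UMIs of the 10 genes, Syt1 made up 50.2% ± 3.49 in the Cartpt gate and 73.9% ± 4.21 in the cholinergic gate. Syt4 was 18.1% ± 2.63 in the Cartpt gate and 6.37% ± 1.14 in the cholinergic gate. Syt7 was 6.99% ± 0.755 in the Gad gate and 1.19% ± 0.365 in the Slc6a9 gate, and Syt10 was 4.91% ± 0.594 in the Cartpt gate against 0.390% ± 0.0431 over all cells.

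**Figure D1:**
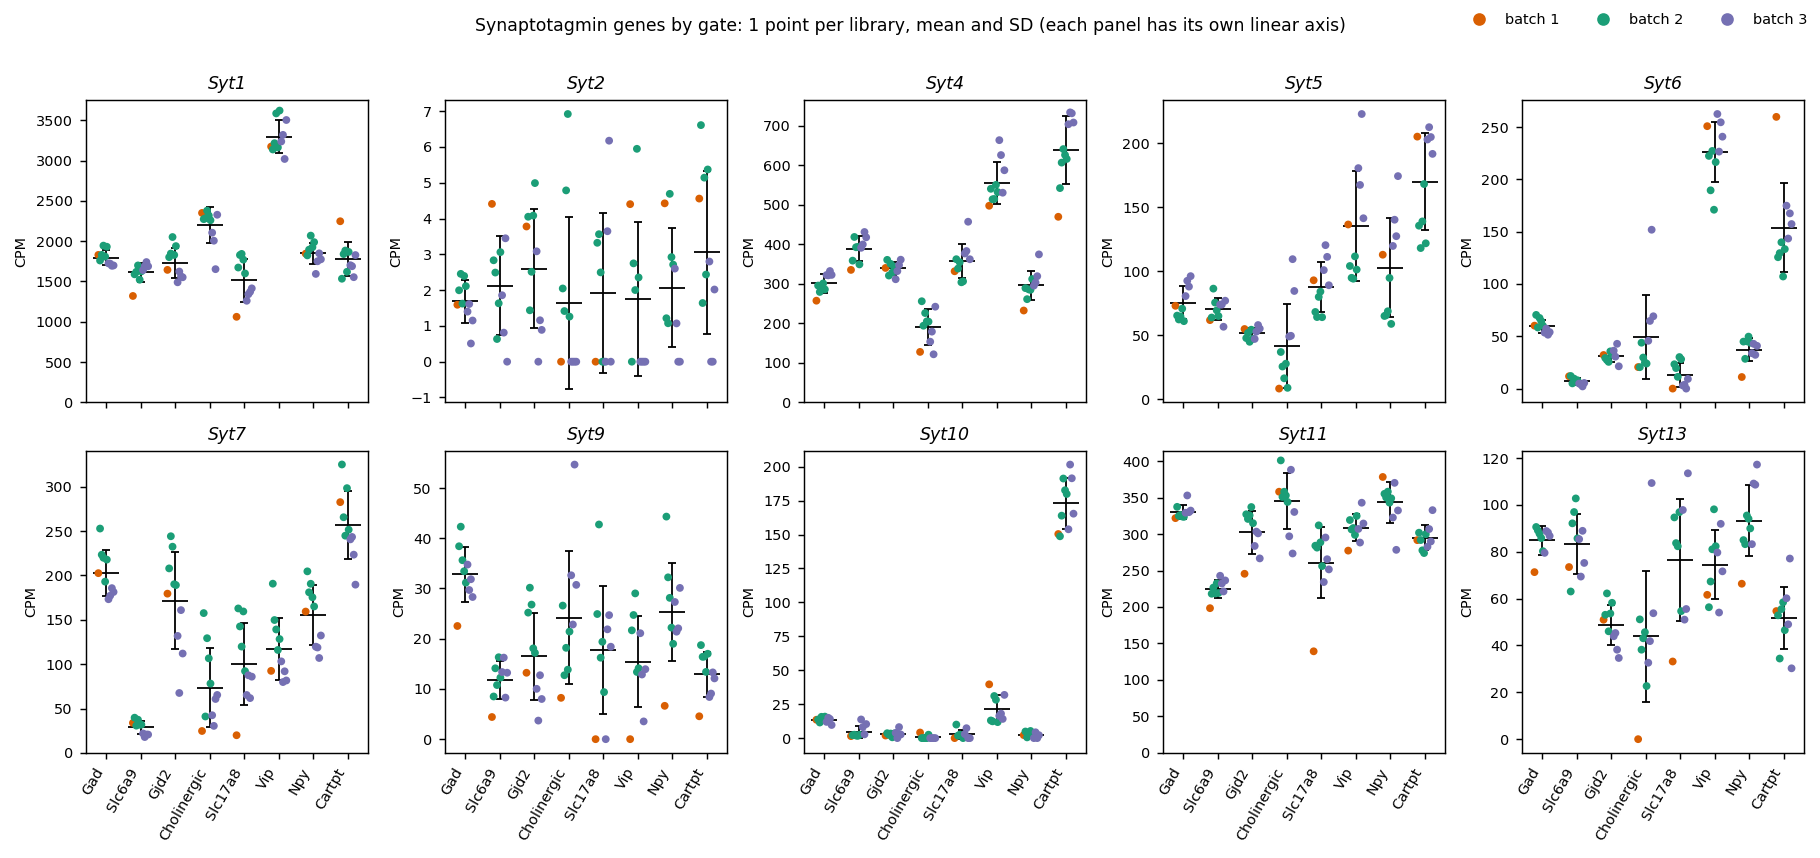
CPM of each synaptotagmin gene (linear vertical axes that differ between panels) in the 8 gates, with 1 point per library coloured by batch, a bar for the mean and whiskers for the SD over 10 libraries. The Vip gate stands apart for Syt1 and the Cartpt gate for Syt10, where its lowest library is at 149 CPM and the highest Vip library at 39.6.

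**Figure D2:**
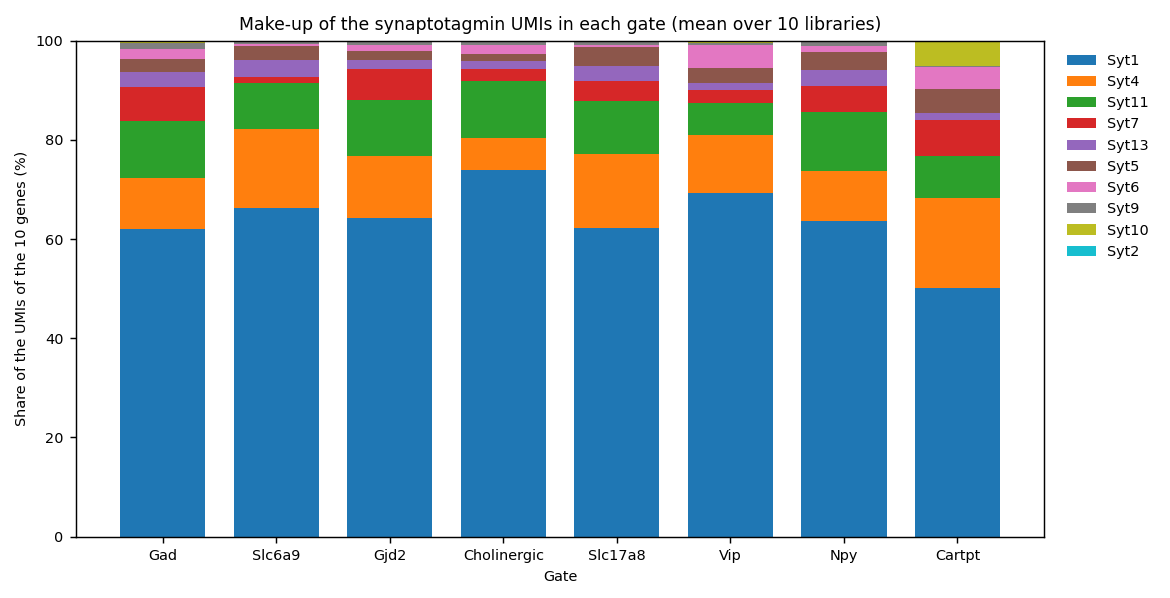
Share of the UMIs of the 10 genes (vertical axis, percent, bars from 0 to 100) that each gene takes in each gate, as the mean over 10 libraries. Syt1 is the widest band in every gate, at 50.2% in the Cartpt gate and 73.9% in the cholinergic gate.

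Each gate was then compared within libraries: the Slc6a9 gate with the Gad gate, and each of the other 6 gates with all remaining cells, using edgeR's quasi-likelihood test with Benjamini-Hochberg adjustment over all genes. These 7 comparisons share cells, since the reference of 1 gate holds the cells of the others. Syt2 passed the filter on low counts in none of them, so 9 of the 10 members were tested each time.

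Syt1, the main fast calcium sensor, was highest in the Vip gate. Its lowest, median and highest library values were 3019, 3226 and 3620 CPM in the Vip gate, against 1649, 1701 and 1865 CPM in the other cells. The ranges did not overlap, and the log2 difference was 0.96 ± 0.02 (SE; adjusted p = 9.45e-30; higher in 10 of 10 libraries). The cholinergic gate came next, with 1652, 2278 and 2379 CPM against 1698, 1735 and 1912 in the other cells, a log2 difference of 0.39 ± 0.05 (adjusted p = 1.25e-07) that was higher in 9 of 10 libraries. In library 9, which had 17 cholinergic cells, Syt1 was lower than in the other cells. The Npy, Gad, Cartpt, Gjd2, Slc6a9 and Slc17a8 gates followed with means from 1851 down to 1516 CPM, and each neighbouring pair in that order had overlapping ranges. Against the Gad gate, Syt1 in the Slc6a9 gate was lower by a log2 value of -0.13 ± 0.03 (adjusted p = 0.00345), with -0.18 in batch 2 and -0.02 (adjusted p = 0.41) in batch 3. In the Slc17a8 gate it fell by 0.25 ± 0.05 on the log2 scale (adjusted p = 0.00021), lower in 10 of 10 libraries, with -0.10 (adjusted p = 0.063) in batch 2 and -0.39 in batch 3.

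Syt2, the fast sensor closest to Syt1 in sequence, was near the limit of detection. Its gate means were 1.64 to 3.06 CPM, every gate range began at 0 except in the Gad gate, and 360 UMIs were counted in all. The gene Ppp1r12b lies on the opposite strand over the 3′ end of Syt2, and it was at 14.6 ± 3.70 CPM over all cells. In the fits over all libraries Syt2 was not tested. In batch 2 alone it passed the filter and was called in none of the 7 comparisons, with the lowest adjusted p at 0.087 in the Cartpt gate (log2 difference 0.94 ± 0.40).

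Syt5, whose translation was 59.5% identical to that of Syt1, was highest in the 2 peptide gates Cartpt and Vip. In the Cartpt gate its lowest, median and highest values were 118, 180 and 212 CPM, against 60.3, 70.4 and 91.3 in the other cells, with no overlap. The log2 difference was 1.29 ± 0.06 (adjusted p = 5.05e-21). In the Vip gate it was at 94.1, 124 and 223 CPM against 61.8, 73.0 and 92.9 in the other cells, again without overlap, and the log2 difference was 0.81 ± 0.07 (adjusted p = 6.57e-12). The lowest levels were in the cholinergic gate, at 8.23, 32.3 and 109 CPM, where the log2 difference was -1.15 ± 0.18 (adjusted p = 7.08e-06). That difference was -1.59 in batch 2 and -0.34 (adjusted p = 0.27) in batch 3, and it was -0.46 (adjusted p = 0.12) once cells that lay in more than 1 gate were left out. Between the Slc6a9 and Gad gates Syt5 did not pass the test (-0.07 ± 0.08, adjusted p = 0.406), and the batches had opposite signs, 0.17 (adjusted p = 0.0495) in batch 2 and -0.31 (adjusted p = 1.7e-05) in batch 3.

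Syt6, known from the acrosome reaction of sperm as well as from neurons, had a pattern with 2 high gates. It was at 171, 227 and 262 CPM (lowest, median and highest library) in the Vip gate, against 32.5, 41.5 and 47.1 in the other cells, a log2 difference of 2.46 ± 0.08 (adjusted p = 3.21e-26). In the Cartpt gate it was at 107, 142 and 260 CPM, against 33.7, 42.9 and 49.9, with a log2 difference of 1.86 ± 0.10 (adjusted p = 5.84e-19). The lowest library of the Cartpt gate was above the highest library of every gate except Vip and cholinergic, the latter through library 9 alone at 152 CPM. Syt6 was near its lowest in glycinergic cells. The Slc6a9 gate was at 2.07, 5.95 and 12.04 CPM and the Gad gate at 51.5, 59.2 and 70.4, and the log2 difference from the Gad gate was -3.18 ± 0.12 (adjusted p = 9.92e-16; lower in 10 of 10 libraries). The Slc17a8 gate was at 0, 10.2 and 30.2 CPM, with a log2 difference of -1.60 ± 0.19 (adjusted p = 6.77e-08).

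Syt9, which groups with Syt6 and Syt10 by sequence, was highest in the Gad gate. There it was at 22.5, 32.6 and 42.3 CPM, against 4.41, 12.7 and 16.3 in the Slc6a9 gate. The ranges did not overlap, and the log2 difference between the Slc6a9 and Gad gates was -1.39 ± 0.11 (adjusted p = 3.68e-10). It was the member of this sequence group that fell where Syt6 and Syt10 rose: in the Cartpt gate the log2 difference was -1.06 ± 0.13 (adjusted p = 8.41e-09) and in the Vip gate -0.77 ± 0.14 (adjusted p = 5.36e-05), each lower in 10 of 10 libraries. It also fell in the Gjd2 gate (-0.75 ± 0.13, adjusted p = 5.88e-05) and the Slc17a8 gate (-0.74 ± 0.20, adjusted p = 0.00478). In the cholinergic gate the call (-0.50 ± 0.18, adjusted p = 0.0284) was lost without library 5 (-0.41, adjusted p = 0.10) and in batch 3, where the value was 0.33. It was also lost without cells in more than 1 gate (-0.075, adjusted p = 0.90) and with DESeq2's test (-0.42, adjusted p = 0.17).

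Syt10, a calcium sensor of growth factor secretion in olfactory bulb neurons, was the member with the most uneven distribution. In the Cartpt gate its lowest, median and highest values were 149, 173 and 202 CPM, against 3.25, 4.66 and 5.44 CPM in the other cells. The ratio of the means was 38.1, and the log2 difference was 5.36 ± 0.09 (adjusted p = 9.19e-36; higher in 10 of 10 libraries). The gate held 3.53% of the cells, 3.96% of all UMIs and 61.5% of the Syt10 UMIs. Syt10 was detected in 52.8% of Cartpt-gated cells (median depth 5420.5 UMIs), in 3.48% of all cells (4210 UMIs) and in 0.307% of cholinergic cells (7462 UMIs). After thinning every cell to 2000 UMIs, which left out 6279 shallower cells in all, the shares were 28.6% and 1.91% in Cartpt-gated and all cells.

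The next gate for Syt10 was Vip, at 11.8, 17.2 and 39.6 CPM, with a log2 difference of 0.98 ± 0.18 (adjusted p = 4.62e-05). In the Npy gate it was at 0, 2.18 and 5.26 CPM, and the log2 difference was -2.14 ± 0.23 (adjusted p = 2.34e-08). It was also lower in the Gjd2 gate (-1.98 ± 0.22, adjusted p = 1.62e-07) and in the Slc17a8 gate (-1.93 ± 0.36, adjusted p = 0.000108, from 13 UMIs). The cholinergic gate held 3 Syt10 UMIs among 4993912, and the difference from the other cells passed the test (adjusted p = 6.85e-08). Those other cells include the Cartpt gate, so their Syt10 level rests in large part on it. The same holds for the other cells in the Npy, Gjd2 and Slc17a8 comparisons, and for the Gad gate. Cells of the Gad gate that lay in none of the 6 gene gates were at 4.39 ± 1.16 CPM, against 13.5 ± 1.97 for the whole Gad gate. Slc6a9-gated cells in none of the 6 gene gates were at 6.70 ± 5.65 CPM, a range that overlapped that of the former. Between the Slc6a9 and Gad gates the difference was -1.19 ± 0.27 (adjusted p = 0.000744). It was -2.73 in batch 2 and -0.40 (adjusted p = 0.059) in batch 3, where the 4 libraries of the Slc6a9 gate ran from 2.76 to 13.7 CPM, against 1.63 to 2.49 in batch 2.

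Syt7, the slow sensor, differed between the Slc6a9 and Gad gates without overlap of their libraries. Its lowest, median and highest values were 17.9, 31.3 and 39.7 CPM in the Slc6a9 gate and 173, 198 and 253 CPM in the Gad gate. The ratio of the means was 7.08, and the log2 difference was -2.85 ± 0.06 (adjusted p = 2.64e-19), with -2.67 in batch 2 and -3.14 in batch 3. Among the other gates it was highest in the Cartpt gate, at 190, 248 and 325 CPM against 127, 172 and 220 in the other cells (0.67 ± 0.05, adjusted p = 2.78e-13; higher in 10 of 10 libraries, although the ranges overlapped). It fell in the Vip gate by 0.53 ± 0.06 on the log2 scale (adjusted p = 8.75e-10) and in the cholinergic gate by 1.10 ± 0.13 (adjusted p = 8.2e-08), each lower in 10 of 10 libraries. Among Gad-gated cells alone, the log2 values were -0.86 ± 0.07 for Vip (adjusted p = 2.1e-14) and -1.69 ± 0.15 for cholinergic cells (adjusted p = 1.9e-10). The lowest cholinergic library, at 24.7 CPM, lay within the range of the Slc6a9 gate. The Slc17a8 gate, at a mean of 99.7 CPM, was lower than the other cells by a log2 value of -0.74 ± 0.10 (adjusted p = 2.43e-07). Only its 190 cells inside the Slc6a9 gate were compared with the other Slc6a9-gated cells, and there the value was 0.37 ± 0.28 (adjusted p = 0.39).

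Syt4, which sits on dense-core vesicles and lacks full calcium binding, was highest in the Cartpt and Vip gates, as Syt5 and Syt6 were. In the Cartpt gate it was at 469, 633 and 734 CPM against 266, 295 and 344 in the other cells (1.16 ± 0.03, adjusted p = 1.84e-27). In the Vip gate it was at 497, 536 and 663 CPM against 264, 299 and 353 (0.87 ± 0.04, adjusted p = 2.53e-22). Neither range overlapped that of the other cells. Unlike Syt6 and Syt7, Syt4 was higher in the Slc6a9 gate than in the Gad gate, at 335, 393 and 431 CPM against 257, 298 and 332, with a log2 difference of 0.39 ± 0.03 (adjusted p = 2.15e-10) and no overlap. It was lowest in the cholinergic gate, at 121, 199 and 256 CPM against 278, 311 and 362 in the other cells (-0.59 ± 0.08, adjusted p = 6.79e-07; lower in 10 of 10 libraries).

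Syt11, its closest relative here and a regulator of membrane retrieval, was the most even member. Its highest gate mean was 345 ± 38.1 CPM (cholinergic) and its lowest 225 ± 12.5 (Slc6a9), a ratio of 1.54. In the Slc6a9 gate it was at 198, 224 and 243 CPM, below all libraries of the Gad gate at 322, 328 and 353 CPM, with a log2 difference of -0.53 ± 0.03 (adjusted p = 6.88e-13). Syt4 and Syt11 thus had opposite signs in this comparison, and each was the same in both larger batches (0.41 and 0.33 for Syt4, -0.53 and -0.52 for Syt11). In the Vip, Cartpt and Gjd2 gates Syt11 did not pass the test, with log2 differences of 0.02 ± 0.04, 0.00 ± 0.04 and 0.03 ± 0.03.

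Syt13, an atypical member with a threonine codon at the aligned position, ran from 93.2 ± 15.2 CPM in the Npy gate to 43.8 ± 27.8 in the cholinergic gate. It fell in the cholinergic gate (-1.07 ± 0.14, adjusted p = 6.93e-07), the Gjd2 gate (-0.85 ± 0.07, adjusted p = 1.5e-09) and the Cartpt gate (-0.72 ± 0.08, adjusted p = 4.01e-09). Between the Slc6a9 and Gad gates it did not pass the test (-0.01 ± 0.06, adjusted p = 0.853), but was lower with both gates doubled (-0.18 ± 0.07, adjusted p = 0.043). The Slc6a9 gate was mixed for Syt13. Its cells in no gene gate were at 118 ± 18.6 CPM and its Gjd2-gated cells at 11.0 ± 9.76. Gad-gated cells in no gene gate were at 87.4 ± 6.12 CPM. The call in the Vip gate (-0.21 ± 0.08, adjusted p = 0.034) was lost in either batch alone (adjusted p = 0.13 and 0.17).

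**Figure D3:**
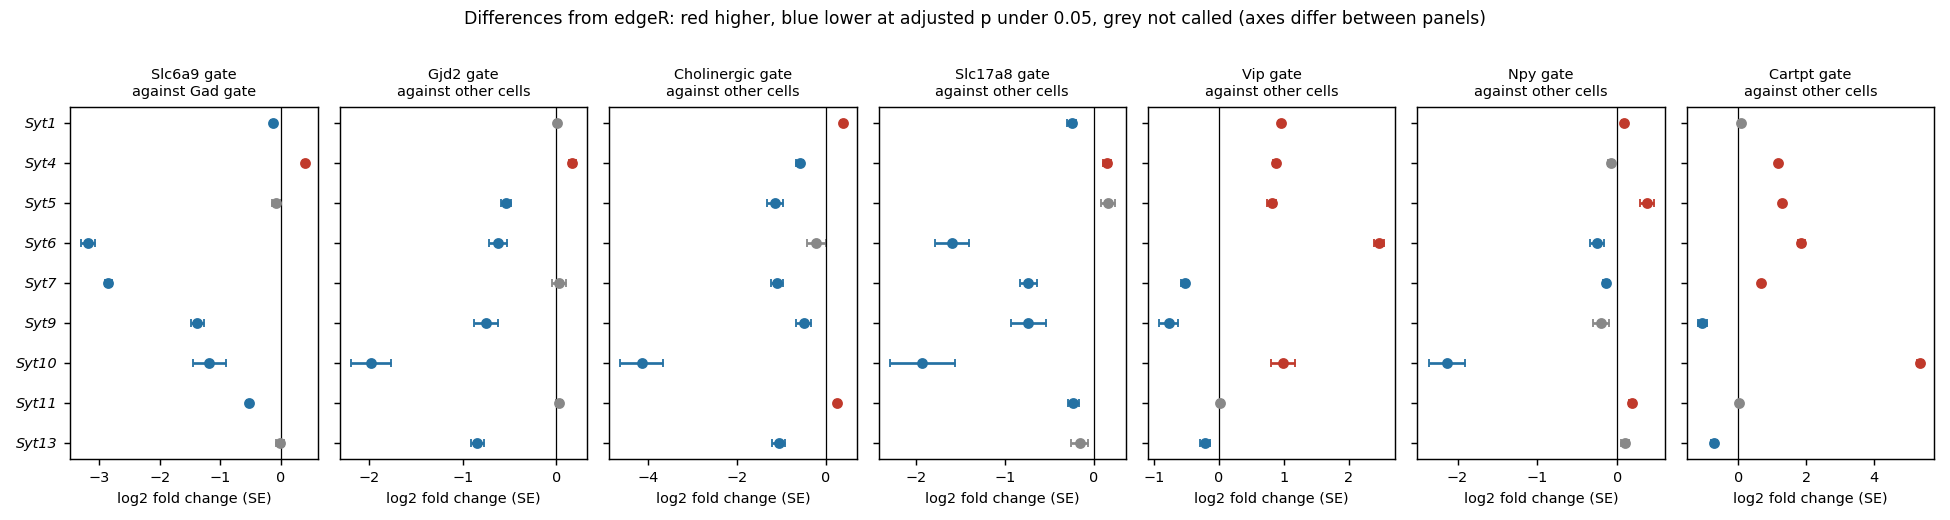
Fitted log2 fold change with its SE (horizontal axes that differ between panels) of the 9 tested synaptotagmin genes in the 7 comparisons, red for higher and blue for lower at an adjusted p under 0.05 and grey for not called. Syt10 reaches 5.36 in the Cartpt gate and Syt6 -3.18 between the Slc6a9 and Gad gates; the Syt10 value in the cholinergic gate rests on 3 UMIs.

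Counted by comparison, 1 of the 9 tested members was higher and 6 were lower in the Slc6a9 gate than in the Gad gate, where 61.2% of all 11250 genes tested were called, 32.1% higher and 29.1% lower. The median log2 difference of the members was -0.53, against 0.03 for all genes. Those past a 2-fold decrease were Syt6, Syt7, Syt9 and Syt10, a size that 7.99% of all genes reached. For Syt10 this decrease was not seen in cells of no gene gate, at 6.70 ± 5.65 CPM in the Slc6a9 gate and 4.39 ± 1.16 in the Gad gate. In the Vip gate 5 members were higher and 3 lower (25.6% of all genes called, 12.5% higher and 13.1% lower), with a median of 0.81 against 0.00. The Cartpt gate had 5 higher and 2 lower (32.3% called, 16.4% higher and 15.9% lower), with a median of 0.67 against 0.01. In the cholinergic gate 2 were higher and 6 lower (34.7% called, 16.8% higher and 18% lower), with a median of -0.59. The Slc17a8 gate had 1 higher and 6 lower (25.1% called, 10.6% higher and 14.5% lower), with a median of -0.25. The Gjd2 gate had 1 higher and 5 lower (48.4% called, 23.9% higher and 24.5% lower), with a median of -0.54. The Npy gate had 3 higher and 3 lower (28.7% called, 15.4% higher and 13.3% lower) and a median of -0.08. Apart from Syt10, its differences from all other cells were small. Syt5 rose by 0.37 ± 0.08 on the log2 scale (adjusted p = 0.00128), with 0.10 (adjusted p = 0.34) in batch 2 and 0.75 (adjusted p = 1.9e-08) in batch 3. Syt11 was higher (0.18 ± 0.03, adjusted p = 8.35e-05) and Syt7 lower (-0.14 ± 0.04, adjusted p = 0.00316), and neither was called in batch 3 alone (adjusted p = 0.24 and 0.14). Without cells in more than 1 gate, Syt7 was at 0.049 (adjusted p = 0.49) and Syt1 at -0.024 (adjusted p = 0.58). Syt1 was at 0.08 (adjusted p = 0.00818), but at 0.06 (adjusted p = 0.057) without library 5, and Syt6 was at -0.26 (adjusted p = 0.0332), but at -0.21 (adjusted p = 0.098) without cells whose barcode occurs in more than 1 library. The Syt6 call was also lost in batch 3 (-0.062, adjusted p = 0.84), with a doubled gate (-0.074, adjusted p = 0.66) and without cells in more than 1 gate (-0.021, adjusted p = 0.90). Syt4 was not called (-0.08 ± 0.03, adjusted p = 0.0857), but was at -0.12 (adjusted p = 0.015) without library 6. Among Gad-gated cells alone, the Npy gate was lower in Syt6 (-0.62 ± 0.09, adjusted p = 5.5e-06) and Syt7 (-0.50 ± 0.05, adjusted p = 3.0e-10). Syt9, not called against all other cells (-0.21, adjusted p = 0.15), was also lower there (-0.39 ± 0.13, adjusted p = 0.022). Syt1 and Syt11 were not called among Gad-gated cells (adjusted p = 0.11 and 0.14).

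The Cartpt gate was not uniform, and the synaptotagmins followed the amount of Cartpt in different ways. Cells were split by the share of their UMIs that came from Cartpt, which encodes a neuropeptide precursor, and these levels are a description with no test. Syt10 was at 3.10 ± 1.21 CPM in cells with 0 Cartpt UMIs and at 22.2 ± 8.15 in cells with 0.25% to under 1%. It was at 67.8 ± 26.8 from 1% to under 3%, 221 ± 34.6 from 3% to under 6% (n = 9) and 294 ± 42.1 at 6% or more (n = 9). Syt4 was ordered in the same way from the second bin on, with 467 ± 35.9, 532 ± 64.1, 676 ± 35.2 and 802 ± 88.3 CPM from 0.25% upward, against 300 ± 24.5 at 0 UMIs. Syt1 was instead highest in the middle: it was at 1713 ± 91.3 CPM at 0 UMIs, 2804 ± 312 and 2523 ± 391 CPM in the bins from 0.25% to under 3%, and 1250 ± 73.2 and 1108 ± 135 CPM in the upper 2 bins. The ranges of the upper 2 bins, up to 1385 CPM, lay below every library of the cells with 0 Cartpt UMIs, whose lowest was 1625.

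The levels also differed by the overlap with the Vip gate. The 992 Cartpt-gated cells outside the Vip gate were at 1389 ± 159 CPM of Syt1, 196 ± 22.2 of Syt10, 282 ± 42.1 of Syt7 and 128 ± 42.1 of Syt6. The 156 cells in both gates were at 4289 ± 624 CPM of Syt1, 40.2 ± 25.7 of Syt10, 119 ± 47.8 of Syt7 and 307 ± 47.7 of Syt6 (n = 8 libraries). The 774 cells of the Vip gate alone were close to the latter in Syt7 (116 ± 39.2 CPM) and lower in Syt1 (3145 ± 181) and Syt6 (208 ± 24.1). In the test, Syt1 in the Cartpt gate was not called (0.06 ± 0.03, adjusted p = 0.123). It was lower by a log2 value of -0.29 ± 0.04 (adjusted p = 7.5e-08) when cells in more than 1 gate were left out, and by -0.35 ± 0.03 (adjusted p = 1.1e-12) when the Cartpt threshold was doubled. The calls for Syt4, Syt5, Syt6, Syt7 and Syt10 kept their sign under both.

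Along Vip, the precursor of vasoactive intestinal peptide, Syt1, Syt4 and Syt6 were ordered together. Syt1 was at 1728 ± 75.8 CPM in cells with 0 Vip UMIs, 1797 ± 123 with 1 to 4, 2406 ± 314 with 5 to 19 (n = 9), 3217 ± 323 with 20 to 59 (n = 9) and 3993 ± 300 with 60 or more. Syt6 was at 39.1 ± 5.69, 58.1 ± 10.3, 137 ± 51.3, 231 ± 40.6 and 282 ± 51.1 CPM in the same bins. Syt4 was at 309 ± 27.4, 325 ± 43.1, 405 ± 65.4, 495 ± 58.3 and 724 ± 77.1 CPM. Syt7 was at 173 ± 33.8 CPM with 0 UMIs, at 204 ± 40.5 with 1 to 4 and at 103 ± 52.5 with 60 or more. Syt10 was at 9.76 ± 1.38 CPM with 0 UMIs. In the bins above 0 UMIs it was at 28.3 ± 9.30, 25.9 ± 18.9, 23.2 ± 20.6 and 16.3 ± 5.49 CPM, and the ranges of these 4 bins overlapped. Cells with 60 or more Vip UMIs were also deeper, at a median of 6858 UMIs against 4118 at 0 UMIs, and the part of depth was not tested.

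**Figure D4:**
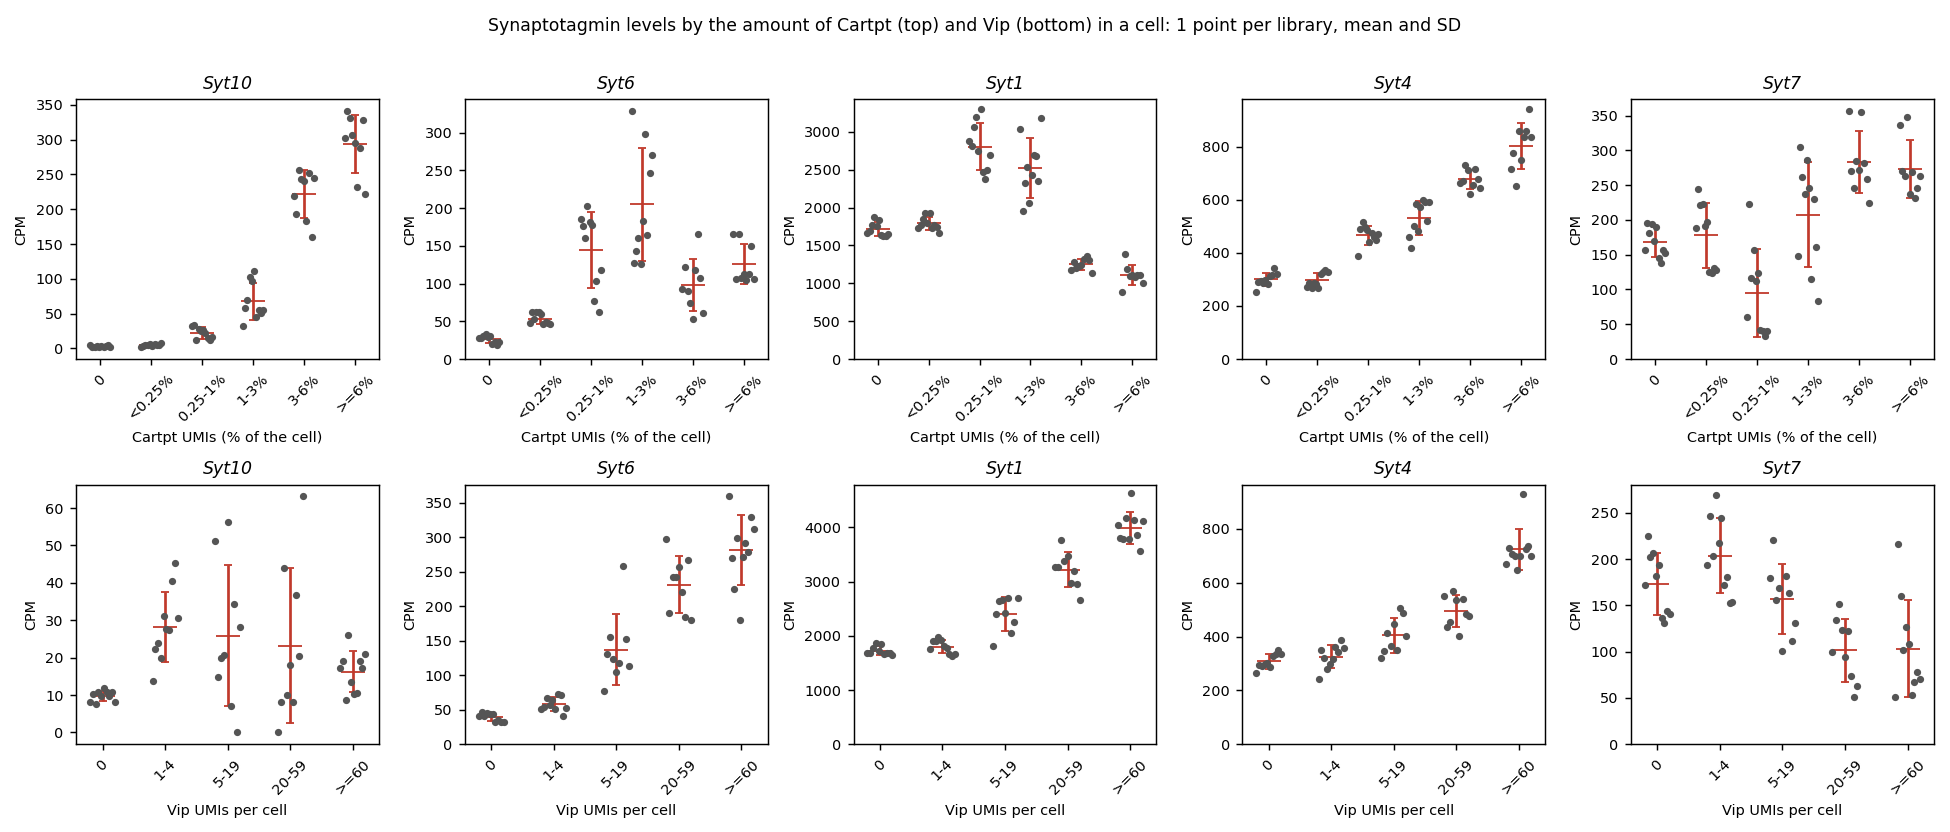
CPM of Syt10, Syt6, Syt1, Syt4 and Syt7 (linear vertical axes that differ between panels) in bins of the share of Cartpt UMIs in a cell (top) and of Vip UMIs per cell (bottom), with 1 point per library and the mean and SD. Syt10 reaches 294 CPM in the top Cartpt bin and 16.3 in the top Vip bin, while Syt1 reaches 1108 and 3993.

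The Gjd2 gate mixed the transmitter classes, and the split changed what the members showed. Connexin-36 forms the gap junctions of AII amacrine cells, a glycinergic type of the rod pathway. The 934 Gjd2-gated cells inside the Slc6a9 gate had a median depth of 4834.5 UMIs, and the 222 inside the Gad gate and 784 in neither had 9992.5 and 9195.5. Syt7 was at 8.37 ± 3.74 CPM in the Slc6a9-gated part, 350 ± 84.7 in the Gad-gated part and 203 ± 63.0 in neither. The 3 sets of libraries had maxima and minima of 14.7 and 3.35, 472 and 233, and 290 and 87.2 CPM, so the first stood apart from the other two. Against the other Slc6a9-gated cells, Syt7 was lower by a log2 value of -1.97 ± 0.19 (adjusted p = 4.2e-10), although over the whole gate it was not called (0.03 ± 0.07, adjusted p = 0.773).

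Syt13 and Syt5 were low in the same glycinergic cells. Syt13 was at 11.0 ± 9.76 CPM in the Gjd2-gated part of the Slc6a9 gate and at 118 ± 18.6 in Slc6a9-gated cells of no gene gate, and the log2 difference within the Slc6a9 class was -3.25 ± 0.18 (adjusted p = 3.4e-15). Syt5 was at 33.8 ± 8.62 against 81.7 ± 12.2 CPM, a difference of -1.22 ± 0.11 (adjusted p = 8.4e-11). Syt11 was higher by 0.20 ± 0.06 (adjusted p = 0.0059) and Syt4 was not called (0.02 ± 0.05, adjusted p = 0.80). Over the whole Gjd2 gate, Syt4 was higher (0.17 ± 0.04, adjusted p = 0.0013), with 0.24 in batch 2 and 0.05 (adjusted p = 0.44) in batch 3. The Gjd2-gated cells of the Slc6a9 gate held 8 UMIs of Syt9, 12 of Syt6 and 0 of Syt10, which allows up to 0.651 CPM of Syt10 at 3 counts (counting error only). Syt1, Syt4 and Syt11 were the members above 100 CPM in them.

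Slc17a8-gated cells inside the Slc6a9 gate, 190 in all, held 0 UMIs of Syt6 and 0 of Syt10, which allows up to 3.20 CPM of each. Their Syt7 was at 35.1 ± 15.7 CPM, against 121 ± 32.9 in the 420 Slc17a8-gated cells of neither transmitter gate (n = 9). Syt5 had the reverse order, at 125 ± 38.4 and 68.0 ± 16.5 CPM, and within the Slc6a9 class the log2 difference of Syt5 was 0.83 ± 0.17 (adjusted p = 8.5e-05). Syt1 was at 1220 ± 152 CPM in the 190 cells, with a log2 difference of -0.41 ± 0.06 (adjusted p = 1.9e-08) within the class.

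**Figure D5:**
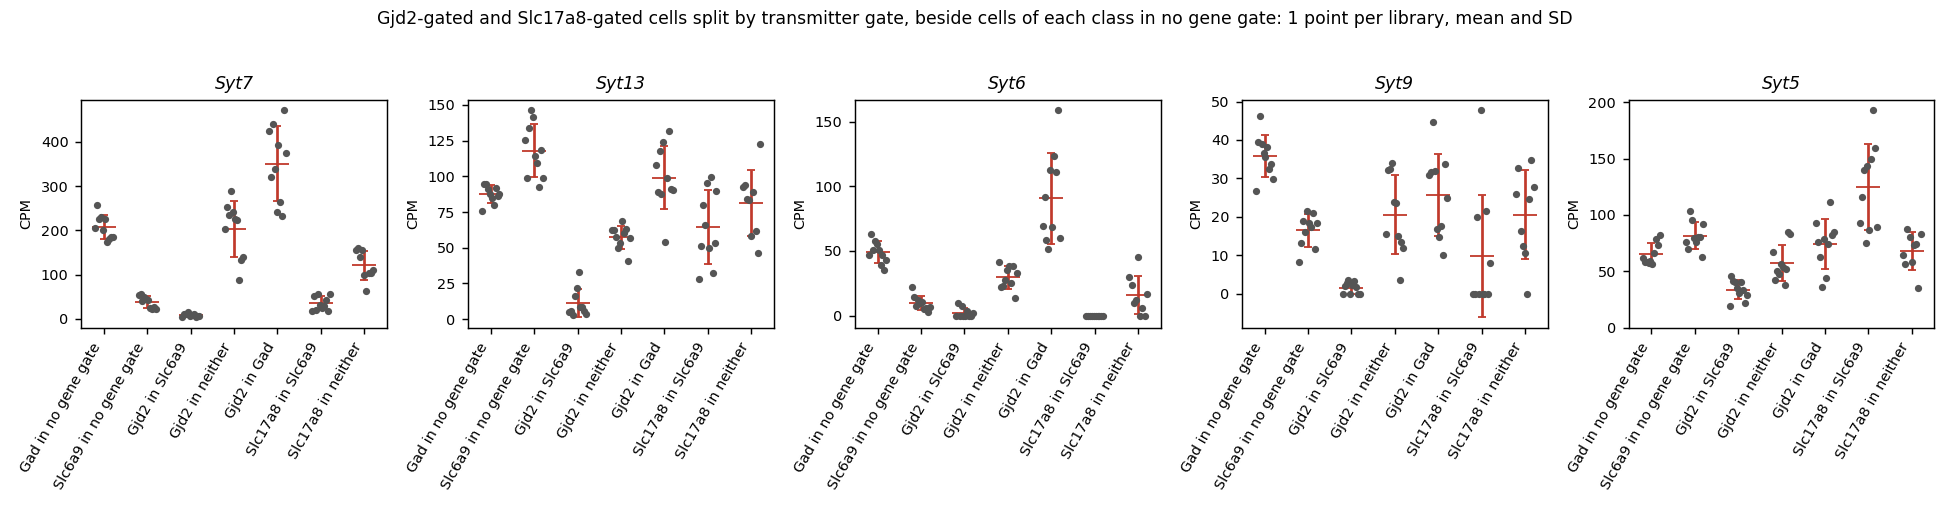
CPM of Syt7, Syt13, Syt6, Syt9 and Syt5 (linear vertical axes that differ between panels) in Gjd2-gated and Slc17a8-gated cells split by transmitter gate, beside cells of each transmitter gate in no gene gate, with 1 point per library and the mean and SD. Syt7 and Syt13 are at 8.37 and 11.0 CPM in the Gjd2-gated cells of the Slc6a9 gate, and Syt7 is at 350 CPM in those of the Gad gate.

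The cholinergic gate differed by its overlap with the Npy gate. The 277 cells in both gates were at 15.7 ± 7.91 CPM of Syt6, 16.4 ± 18.9 of Syt5, 42.3 ± 42.0 of Syt7 and 20.3 ± 15.6 of Syt13 (n = 9 libraries), at a median depth of 8372 UMIs. The 374 cholinergic cells outside the Npy gate were at 76.6 ± 60.8, 64.5 ± 50.3, 103 ± 57.3 and 61.5 ± 35.9 CPM, at a median depth of 5126.5. Syt1 was at 2387 ± 159 and 2090 ± 264 CPM. Syt6 over the whole gate had opposite signs in the batches, -0.74 (adjusted p = 9.9e-05) in batch 2 and 0.96 (adjusted p = 0.00062) in batch 3. With the gate doubled it was lower (-1.13 ± 0.16, adjusted p = 1.0e-07), a setting in which library 9 had too few cells to enter. The summed bipolar markers ran from 24.7 to 583 CPM over the libraries of this gate, and their part in these values was not tested.

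Other genes of the release machinery were read from the same fits. Of 19 other synaptotagmin-type genes, which carry C2 domains, 9 or 10 passed the filter, and of 27 SNARE, priming and fusion genes 25 to 27 did. Between the Slc6a9 and Gad gates, 4 of 25 fusion genes were higher and 15 lower, where 32.1% of all genes tested were higher and 29.1% lower. Stxbp6 (amisyn, which binds SNARE proteins) was at 2.49 ± 1.02 against 94.7 ± 6.68 CPM, a log2 difference of -5.14 ± 0.11 (adjusted p = 1.63e-19). The priming factors Unc13b (-1.95 ± 0.08) and Unc13c (-1.19 ± 0.05) and the SNARE gene Vamp4 (-1.21 ± 0.04) were also lower, as were Syt12 (-1.54 ± 0.13) and the calcium sensor Doc2a (-1.20 ± 0.18) among the other synaptotagmin-type genes, of which 2 of 9 were higher and 5 lower.

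In the Vip gate, 6 of 27 fusion genes were higher and 10 lower, and 5 of 10 other synaptotagmin-type genes were higher and 2 lower. Of all genes tested there, 12.5% were higher and 13.1% lower. Cadps2, a priming factor of dense-core vesicles, was at 33.3 ± 11.1 against 2.81 ± 0.809 CPM (3.54 ± 0.17, adjusted p = 5.68e-20). Doc2a rose (1.11 ± 0.17) and Doc2b fell (-1.32 ± 0.25), and Sytl5 rose by 1.65 ± 0.26 and Unc13c fell by 1.07 ± 0.11 on the log2 scale. The Cartpt gate had 7 of 27 fusion genes higher and 6 lower, and 3 of 10 other synaptotagmin-type genes higher and 2 lower. All genes tested had shares of 16.4% higher and 15.9% lower in this gate. Rph3a (rabphilin, a vesicle protein with C2 domains) was at 576 ± 33.0 against 263 ± 10.3 CPM (1.22 ± 0.03, adjusted p = 8.37e-28). Doc2a rose by 1.51 ± 0.15 and Cadps2 by 1.55 ± 0.26, and Doc2b (-1.81 ± 0.26), Stxbp6 (-1.45 ± 0.10) and Unc13c (-1.34 ± 0.10) were lower.

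In the Npy gate 11 of 27 fusion genes were higher and 4 lower, with Cadps2 at 1.57 ± 0.17 on the log2 scale, and 1 of 10 other synaptotagmin-type genes was higher and 1 lower. Of all genes tested in that gate, 15.4% were higher and 13.3% lower. In the cholinergic gate 4 of 26 fusion genes were higher and 7 lower, with Stxbp6 higher (1.21 ± 0.09) and Unc13b lower (-1.28 ± 0.13), and 1 of 9 other synaptotagmin-type genes was higher and 5 lower, including Doc2a (-1.81 ± 0.33) and Syt16 (-1.12 ± 0.19). The shares over all genes tested were 16.8% higher and 18% lower. The Gjd2 gate had 5 of 27 fusion genes higher and 9 lower, and 2 of 10 other synaptotagmin-type genes higher and 7 lower. Among all genes tested in this gate, 23.9% were higher and 24.5% lower. There Syt17 was higher at 8.03 ± 2.54 against 1.63 ± 0.420 CPM (2.24 ± 0.20) and Rph3a was lower (-1.09 ± 0.12). In the Slc17a8 gate 2 of 27 fusion genes were higher and 7 lower, and 4 of 9 other synaptotagmin-type genes were higher and 1 lower, with Sytl2 at 34.9 ± 16.6 against 8.83 ± 0.634 CPM (1.91 ± 0.18). All genes tested had shares of 10.6% higher and 14.5% lower there.

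The genes whose levels most resembled each member were found over 80 values (8 gates in 10 libraries, which share cells, libraries and depth) of log2(CPM + 1), among 7980 genes, as a description. For Syt10 the closest was Cartpt itself (Pearson r = 0.932), followed by Gpr22 (0.874) and Iyd (0.849). Cartpt defined 1 of the gates. For Syt6 they were Dpp10 (0.877), Dach2 (0.860) and Fosl2 (0.846), and genes close to Syt7 included Mn1 (0.851) and Nptx2 (0.850). For Syt1 they were Mpped2 (0.839), Cd24a (0.742) and Adgrl3 (0.726), and for Syt4 Plppr5 (0.812), Fam81a (0.807) and Sema5a (0.802). Syt5 was closest to Marcksl1 (0.897), Caly (0.865) and Ndn (0.820), and Syt11 to Stxbp6 (0.876), Diras1 (0.850) and 1190002N15Rik (0.847). Syt13 was closest to Acsl3 (0.804), Fuca2 (0.798) and Pnmal2 (0.796). For Syt9 the closest gene, Kcnj12, reached 0.712.

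In GRCm38, Syt6 lies on chromosome 3 (103575231 to 103645569, plus strand), Syt7 on chromosome 19 (10389090 to 10453180, plus strand) and Syt10 on chromosome 15 (89782393 to 89841860, minus strand). Syt1 spans 513333 bases of chromosome 10 (108497650 to 109010982, minus strand), the longest of the 10 genes, and Syt5 spans 7777 bases of chromosome 7 (4539765 to 4547541, minus strand), the shortest. Syt6 and Syt11 share chromosome 3, and Syt5 and Syt9 share chromosome 7. At its 3′ end Syt6 overlaps Atg4a-ps on the opposite strand, which was at 0.128 ± 0.238 CPM over all cells.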

How the data were processed

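Per the labels' protocols, libraries were made with 10x Chromium 3′ v2 chemistry from sorted cells. The deposited table holds counts, in whole UMIs. Cell Ranger 2.1.0 and build mm10 are named per the submitters' processing notes. For annotation, cell filters and doublet removal, no step is given in the sources used here. No cell was removed here and no doublet caller was run; the lowest values were 601 genes and 748 UMIs in a cell.

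UMIs were summed per library and gate. CPM divides a gene's sum by the total of the gate, and shares divide it by the sum of the 10 genes. Gates were compared with edgeR 4.0.16 in R 4.3.3 (quasi-likelihood test, the library as a block since it gives both sums, TMM scaling, filterByExpr, at least 10 cells per library and side, Benjamini-Hochberg adjustment over all genes tested, threshold 0.05). The SE is the absolute log2 difference divided by the square root of the F statistic. Genes that define a gate were left out of its counts of called genes. Counts of called genes refer to all genes tested. Depth was 6302659 to 26028492 UMIs per library. The limits given for counts of 0 cover counting error only, while each SD and SE reflects variation among libraries. The script was checked on simulated data.

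The 10 genes, the gates and the lists were chosen with earlier results of these data known. Of 2 lists of release genes, up to 4 called genes with an absolute log2 difference of at least 1 are named per comparison, and up to 3 most similar genes per member; for Syt9 only the closest is printed, and some for Syt2 and Syt7 are not reported here. Coding stretches come from GENCODE M21 transcripts aligned with Biopython 1.88. Alternatives were another scaling or test (DESeq2 1.42.0), no filter, no library block, doubled gates, cells of at least 3000 UMIs, each larger batch alone, 1 transmitter class, and cells of other classes or of more than 1 gate left out. Leaving out recurring barcodes or library 5 or 6 was added after seeing the data. Library 1 alone forms batch 1 and gives no fit of its own.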

Additional observations from a re-analysis of the deposited data

Results flagged for a closer look

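A library that stood apart from the other 9 of its gate, by Dixon's test at the 95% level, was found in 11 of the 80 gene and gate pairs checked, where chance gives about 1 in 20. In the cholinergic gate all of them were library 9, which held 17 such cells: its Syt1 was lowest at 1652.2 CPM, and its Syt6 (151.86 CPM, 25 UMIs), Syt9 (54.668 CPM, 9 UMIs) and Syt13 (109.34 CPM, 18 UMIs) were highest. Library 9 was also highest for Syt4 in the Slc17a8 gate at 456.89 CPM and for Syt10 in the Gjd2 gate at 8.1017 CPM, the latter from 7 UMIs.

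Library 1, the only library of batch 1, was lowest for Syt1 in the Slc6a9 gate at 1319.6 CPM and for Syt11 in the Slc17a8 gate at 139.27 CPM (21 UMIs). In the Cartpt gate it was highest for Syt1 at 2246.6 CPM and for Syt6 at 259.75 CPM (57 UMIs). Library 8 was highest for Syt11 in the Gad gate at 352.9 CPM, where the next library was at 337.28.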

How the results depend on the processing

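Of the 858 values of single genes under alternatives, 753 kept their direction and their side of the threshold, 46 were no longer past it, 18 became so and 41 changed sign; of the 96 counts of called genes, 89 stayed within 1.5 times. The others were, in batch 3 alone, 1979 (Npy, 3341 in all libraries), 1408 (cholinergic, 3966) and 1806 (Vip, 2928); within the Slc6a9 class, 3199 (Gjd2, 5633) and 1388 (Slc17a8, 2880), where fewer genes and cells were tested; without cells in more than 1 gate, 1800 (cholinergic); and with no replicate block, 2109 (Npy). The log2 values that changed sign with a call in either fit were, for Syt7, -0.51 with a doubled Gjd2 gate and -1.97 within the class, 0.37 within the class in the Slc17a8 gate and 0.049 in the Npy gate without cells in more than 1 gate. For Syt1 they were -0.024 in the Npy gate and -0.29 in the Cartpt gate without such cells, and -0.35 with a doubled Cartpt gate. Syt4 was at -0.058 within the class in the Slc17a8 gate and Syt5 at 0.17 between the Slc6a9 and Gad gates in batch 2. In batch 3 of the cholinergic gate, Syt6 was at 0.96 and Syt9 at 0.33. The other 30 were called in neither fit. Syt11 in the Cartpt gate was at -0.013 with DESeq2's size factors and in cells of at least 3000 UMIs, -0.015 with DESeq2's test, -0.051 without the filter, -0.049 in batch 2, -0.023 without library 6 (0.016 without library 5), -0.056 with a doubled gate, -0.091 within the class and -0.0029 without cells in more than 1 gate. In the Vip gate it was at -0.030 without the filter, -0.015 from 3000 UMIs, -0.087 within the class and -0.055 without cells in more than 1 gate, and in the Gjd2 gate at -0.028 in batch 3 and -0.010 from 3000 UMIs. Syt1 in the Gjd2 gate was at -0.014 without the filter, -0.065 in batch 3, -0.012 with a doubled gate and without cells in more than 1 gate, and -0.10 within the class. Syt7 there was at -0.00053 with DESeq2's test, -0.17 in batch 3, -0.077 without cells of other classes, -0.045 from 3000 UMIs and -0.030 without cells in more than 1 gate. In batch 2, Syt1 was at -0.011 in the Cartpt gate and Syt13 at 0.045 between the Slc6a9 and Gad gates. Without cells in more than 1 gate, Syt6 was at 0.42 in the cholinergic gate, and Syt4 at 0.036 and Syt9 at 0.0010 in the Npy gate. The cause was not tested. Libraries pair the 2 sums they give, so the block was part of every fit; without the replicate block Syt1 (0.08), Syt5 (0.41), Syt6 (-0.24) and Syt7 (-0.11) in the Npy gate, Syt9 (-0.43) in the cholinergic gate, Syt4 (0.14) in the Slc17a8 gate and Syt13 (-0.21) in the Vip gate were no longer called, and no other call of a member changed. Syt2 in all gates, Syt10 outside the Cartpt, Vip and Gad gates and the 17 cholinergic cells of library 9 limit what depth can show. Leaving out 1 replicate in turn was run for libraries 5 and 6 only, as groups hold 10 libraries.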
